A study of Mus musculus with 13 samples.

Results

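Genes that were near 0 in WT thymus and reached a clear level in the lymphomas of both mutant genotypes were described gene by gene. RNA sequencing was analysed for 13 libraries, each from a separate mouse. The lymphomas were 5 thymic lymphomas of Atm-/- mice (strain 129S6/SvEv), which lack the kinase that signals DNA breaks, and 5 of Rag2c/c p53-/- mice (a mixed background of C57BL/6 and 129S6/SvEv), which carry a RAG2 protein shortened at its C terminus and lack p53. The controls were 3 thymuses of WT C57BL/6 mice, libraries that the labels mark as re-used from another series. The labels name no age and no allele or treatment shared by the 3 groups. Because strain differs with genotype and the thymuses come from an earlier series, the parts of strain, series and genotype in any difference cannot be told apart.

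A gene was included when it lay outside chromosomes X and Y, its mean normalized count was at most 10 in WT thymus and at least 50 in each lymphoma genotype, and at least 4 lymphomas of each genotype reached 10. Normalized counts are reads per gene divided by a size factor of the library, as the authors deposited them, rounded to whole numbers. T cell receptor and immunoglobulin segments, collagens, H2 and histone genes, Cdkn2a and Cym were excluded by name or biotype. Of 43629 genes in the table, 39436 lay outside X and Y, 25678 of these had a WT mean of at most 10, and 115 of these also reached 50 in both lymphoma means. The requirement on single lymphomas left 103, and 101 genes remained once Cdkn2a and Cym were removed. The levels against WT thymus chose these genes, so they are given as a description, with no test. They comprised 85 protein-coding genes, 10 pseudogenes, 4 long intergenic RNA genes, 1 antisense RNA gene and 1 gene still to be classed.

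A thymus consists mostly of developing T cells, which keep the programs of other lineages closed through repressive chromatin and the absence of the transcription factors that would open them. Thymic lymphomas arise from such cells, and genes of neurons, epithelia or the germline that are read in tumors of another lineage are commonly called ectopically expressed. A whole-tissue library cannot separate a gene read at a low level in many cells from a gene read at a high level in a few, and in these bulk samples a change in the number of cells of a type cannot be told apart from a change in RNA per cell.

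Not every gene was silent in every thymus. Kank4, Cux2 and Ccnb1ip1 were the 3 genes listed at 0 in all 3 WT thymuses. Between 16 and 20 of the 101 genes reached 10 in each thymus, and 0 reached 50. WT thymus 2 was the shallowest control, with at least 6.68 M reads and 33 of the genes at 0, against 6 and 7 genes at 0 in the other thymuses. In single lymphomas, 93 to 101 of the genes reached 10 in the Atm-/- group and 96 to 101 in the Rag2c/c p53-/- group. Values of single libraries are given in the order of their numbers, and where groups are not named again they follow as Atm-/- lymphomas, Rag2c/c p53-/- lymphomas and thymuses. All 10 lymphomas reached 10 for 74 genes, 9 lymphomas for 23 and 8 for 4 (Emp2, Pabpc2, Syt6 and Tmem98).

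**Figure D1:**
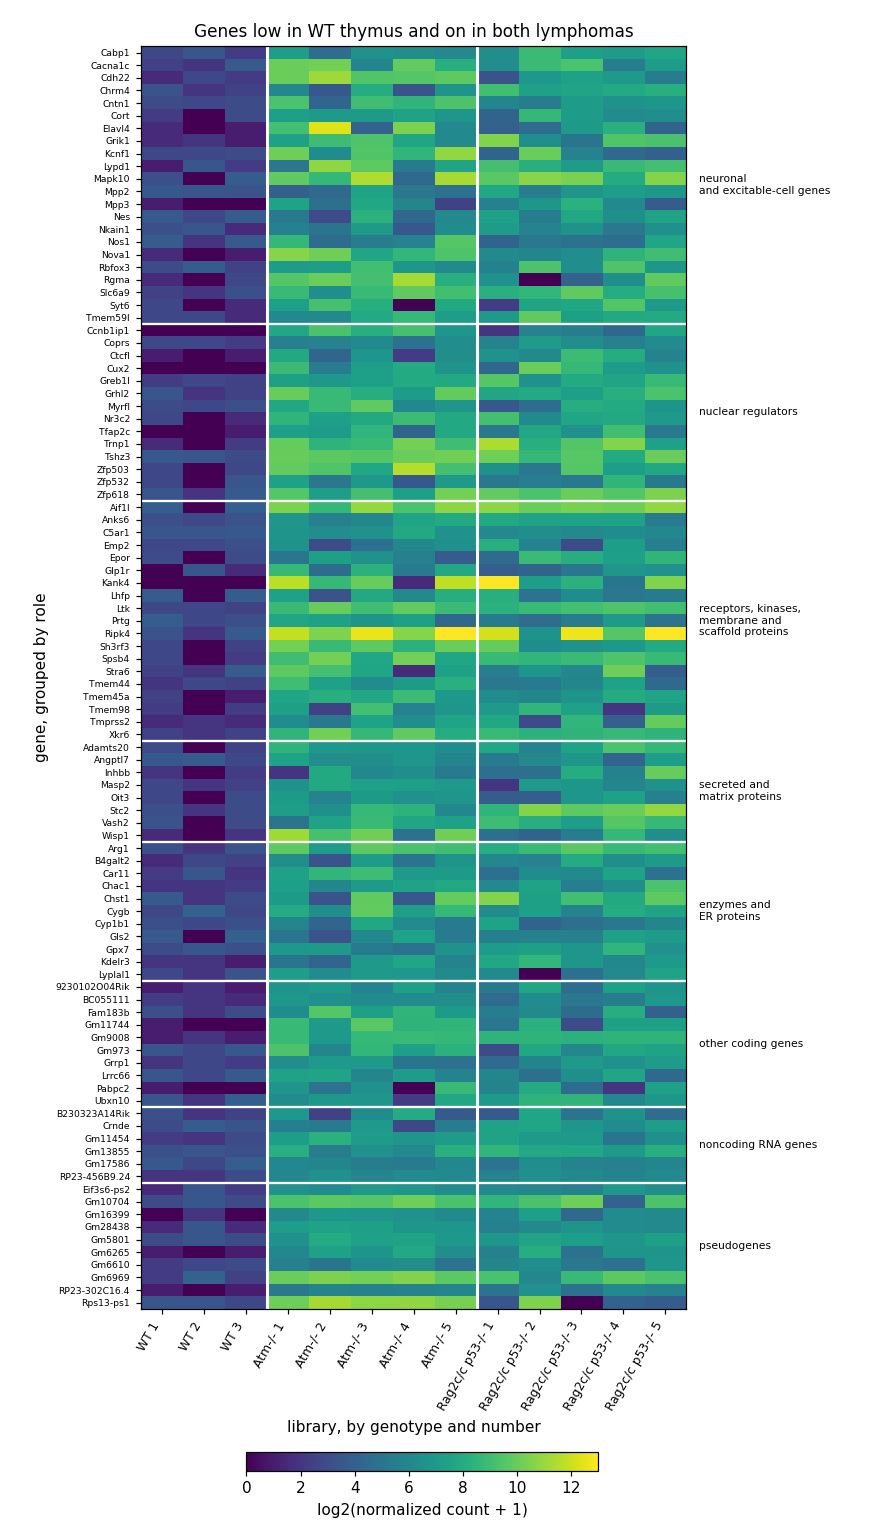
Level of 100 of the 101 genes (rows, grouped by role) in each of the 13 libraries (columns), coloured by log2(normalized count + 1). The 3 WT columns are dark throughout, with 0 of the 101 genes at 50 or more, while the 10 lymphoma columns are uneven, with 66 to 96 of the 101 at 50 or more.

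Every lymphoma lay above every WT thymus for 82 of the genes (81.2%), against 13.6% of the 15872 genes tested, a share that the choice of genes largely fixes. Library depth, estimated from the worth of 1 read, was at least 9.23 to 23.6 M reads for Atm-/-, 6.37 to 24.7 M for Rag2c/c p53-/- and 6.68 to 34.2 M for WT libraries. Against WT thymus, 97 genes passed the threshold as higher in Atm-/- lymphomas (12.7% of all genes tested) and 94 in Rag2c/c p53-/- lymphomas (9.92%), counts that the rule itself produced. The median difference from WT on the log2(value + 1) scale was 4.96 in the Atm-/- group and 4.70 in the other, beside -0.02 for either genotype over all genes tested. Both comparisons share the same 3 thymuses.

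Genes just inside and just outside the limits were alike in level. Mpp2, a scaffold protein of synapses, and Angptl7, a secreted protein, had a WT mean of 10 and were included, while Ccl8 and Pf4 had a WT mean of 11 and were not. At the lymphoma limits, RP23-302C16.4 and Crnde were included with Atm-/- means of 50 and 53, whereas Spink2 and Lamc3 fell outside with 49 and 48. Prtg and Glp1r were included with Rag2c/c p53-/- means of 52 and 54, while Retnla and Gm3650 fell outside, both with 49.

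The promoters of 4 genes are shown because they carry the extremes described here. Kank4 and Ccnb1ip1 were listed at 0 in every thymus, Trnp1 held the only TATAA found near a start among the promoters matched, and Tshz3 had the smallest SD among Atm-/- lymphomas (log2 scale) of the 12 genes with the widest gap from WT. The 250 bases before each start are printed 5′ to 3′ on the strand of the gene, from RefSeq on GRCm38.p6, with each CG in capitals. They lie at chr4:98817538-98817787 (minus strand) for Kank4, chr14:50795729-50795978 (minus strand) for Ccnb1ip1, chr4:133498551-133498800 (minus strand) for Trnp1 and chr7:36697868-36698117 (plus strand) for Tshz3.
Kank4: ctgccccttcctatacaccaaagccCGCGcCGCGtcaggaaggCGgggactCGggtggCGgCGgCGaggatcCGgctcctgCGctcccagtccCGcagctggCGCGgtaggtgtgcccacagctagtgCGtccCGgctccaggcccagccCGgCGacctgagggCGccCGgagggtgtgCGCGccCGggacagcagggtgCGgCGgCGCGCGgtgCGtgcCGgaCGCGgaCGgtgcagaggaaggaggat
Ccnb1ip1: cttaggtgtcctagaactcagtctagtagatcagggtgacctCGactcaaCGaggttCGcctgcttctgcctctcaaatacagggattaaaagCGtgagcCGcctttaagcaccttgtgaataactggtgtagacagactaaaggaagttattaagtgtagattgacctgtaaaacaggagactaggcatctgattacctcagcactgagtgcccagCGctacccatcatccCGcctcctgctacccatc
Trnp1: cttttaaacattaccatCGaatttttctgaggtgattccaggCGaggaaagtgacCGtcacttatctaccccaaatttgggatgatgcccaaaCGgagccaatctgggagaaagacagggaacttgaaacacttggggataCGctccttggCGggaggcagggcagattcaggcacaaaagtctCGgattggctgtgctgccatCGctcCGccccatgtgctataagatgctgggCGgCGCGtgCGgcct
Tshz3: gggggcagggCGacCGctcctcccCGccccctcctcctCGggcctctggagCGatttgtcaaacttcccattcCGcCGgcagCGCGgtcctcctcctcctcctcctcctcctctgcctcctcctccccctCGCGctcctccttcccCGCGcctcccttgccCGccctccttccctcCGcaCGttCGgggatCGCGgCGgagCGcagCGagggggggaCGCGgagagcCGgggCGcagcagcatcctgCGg
Kank4 held 33 CG pairs in this stretch and Tshz3 27, while Trnp1 held 13 and Ccnb1ip1 7. All 4 were CpG-rich over 300 bases, by the measure given next.

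A promoter in the RefSeq table could be matched to 65 of the 101 genes. Over the window from 250 bases before to 50 bases after the start, 36 of these 65 (55.4%) were CpG-rich, meaning a GC content of at least 50% and a ratio of observed to expected CG of at least 0.6. Of the 10492 tested genes with a promoter in the table, 66.4% were CpG-rich. The letters TATAA on the strand of the gene between 40 and 20 bases before the start were found in 1 of the 65 promoters (1.54%), that of Trnp1, and in 2.13% of all. CACGTG, the same on either strand, stood in 7.69% of the promoters of these genes and in 9.91% of all, and TGTGGT, on either strand, in 9.23% and 13%. TGACTCA, on either strand, was found in 0 of the 65 promoters and in 3.58% of all. These are matches of letters without a test, in the 300-base window for all but TATAA, whose shares cover its narrower stretch only. The shares rest on 1, 5, 6 and 0 of the 65 promoters, respectively, too few to read a direction. For some genes the matched start lay far from the start of the gene as deposited, 150556 bp for Rbfox3 and 85807 bp for Nos1.

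The genes were grouped by the role of their products, a grouping made after the values had been seen. The largest group, 22 genes, held products best known from neurons and other excitable cells. These include ion channels and receptors (Cacna1c, Grik1, Kcnf1, Chrm4), RNA-binding proteins of neurons (Nova1, Elavl4, Rbfox3) and adhesion and guidance molecules (Cdh22, Cntn1, Rgma). In 18 of the 22, every lymphoma lay above every thymus, beside 82 of all 101 genes. Group means ran from 58.2 to 1479 in Atm-/- lymphomas and from 60.8 to 1128 in Rag2c/c p53-/- lymphomas, with medians of 293.5 and 217.7, while the highest WT mean was 10.3.

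Nova1, an RNA-binding protein that sets splicing in neurons (ENSMUSG00000021047, chromosome 12 from 46694517 to 46818775), was listed at 2, 0 and 1 in the WT thymuses. Its normalized counts were 1583, 1167, 206, 389 and 686 in the Atm-/- lymphomas and 70, 61, 84, 346 and 511 in the Rag2c/c p53-/- lymphomas. All 10 lymphomas were far above the thymuses, the 2 genotypes overlapped, and the difference between them of 2.12 ± 0.69 (SE, log2) did not pass the test (limma, adjusted p = 0.0634). Without Atm-/- lymphoma 3 the adjusted p was 0.0323, without Rag2c/c p53-/- lymphoma 4 it was 0.0498 and without lymphoma 5 of that genotype 0.03.

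Rbfox3, the splicing factor detected as NeuN in neurons, was 1 of the 6 neuronal markers listed for comparison. Its counts were 143, 155, 540, 117 and 72 in Atm-/- lymphomas, 51, 672, 83, 674 and 115 in Rag2c/c p53-/- lymphomas, and 7, 13 and 5 in thymus. The range of the Atm-/- lymphomas lay within that of the other group. Of the other markers of neurons, Snap25, a protein of synaptic vesicle fusion, was at 0 in all 10 lymphomas, and the summed level of the list was set largely by Tubb3, with means of 1758 in Atm-/-, 730 in Rag2c/c p53-/- and 275 in WT libraries. The sum of all 6 markers ran from 1230 to 2425, from 554 to 1456 and from 286 to 315, respectively.

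Elavl4, another RNA-binding protein of neurons, and Mapk10, the JNK kinase best known from brain, were picked out after their values had been seen for their uneven levels. Elavl4 stood at 559, 5353, 16, 1393 and 73 in Atm-/- lymphomas and at 15, 24, 132, 307 and 17 in Rag2c/c p53-/- lymphomas, against 2, 0 and 1 in thymus. Mapk10 stood at 919, 402, 2810, 21 and 2536, at 811, 1658, 1346, 259 and 1565, and at 8, 0 and 13. In Elavl4 a single lymphoma held most of the summed signal, while Mapk10 was at 259 or more in every lymphoma but Atm-/- lymphoma 4.

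Slc6a9, a glycine transporter, and B4galt2, a galactosyltransferase of the Golgi, lie on opposite strands of chromosome 4 and overlap. Slc6a9 was at 430, 87, 454, 901 and 539 in Atm-/- lymphomas, at 301, 388, 894, 263 and 604 in Rag2c/c p53-/- lymphomas and at 5, 3 and 8 in thymus. B4galt2 was at 85, 9, 138, 30 and 106, at 64, 54, 259, 84 and 132, and at 2, 6 and 5. Lymphoma 3 was the highest for both genes in the Rag2c/c p53-/- group, while in the Atm-/- group lymphoma 4 was the highest for Slc6a9 and lymphoma 3 for B4galt2. Whether the counting used strand is not given in the sources used here, so reads of overlapping genes on opposite strands cannot be told apart.

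All 14 nuclear regulators had every lymphoma above every thymus, beside 82 of all 101 genes, a share that the choice of genes largely fixes. They include the homeobox protein Cux2, the zinc finger proteins Tshz3, Zfp503, Zfp532 and Zfp618, the epithelial factor Grhl2, the trophoblast and germ cell factor Tfap2c, the CTCF paralog Ctcfl of the male germline, and the mineralocorticoid receptor Nr3c2. Means ran from 57.2 to 1075 in Atm-/- and from 63.8 to 1082 in Rag2c/c p53-/- lymphomas.

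Tshz3, a zinc finger homeobox factor of muscle and neuron development (ENSMUSG00000021217, chromosome 7 from 36698118 to 36773553), was among the steadiest in the Atm-/- group only. Its SD was 0.26 log2 units there and 0.94 in the Rag2c/c p53-/- group. Counts were 1015, 834, 760, 1028 and 1197 in Atm-/- lymphomas, 1116, 399, 795, 250 and 1054 in Rag2c/c p53-/- lymphomas, and 11, 10 and 7 in thymus. The means were 966.8 ± 173 and 722.8 ± 387 (SD, n = 5 each) against 9.33 ± 2.08 (SD, n = 3), and the difference between the lymphoma genotypes did not pass the test (0.62 ± 0.37, adjusted p = 0.318, limma).

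Cux2, a homeobox protein of upper-layer cortical neurons (ENSMUSG00000042589, chromosome 5 from 121858387 to 122050102), was at 0 in all 3 thymuses. It stood at 462, 43, 150, 258 and 104 in Atm-/- lymphomas and at 20, 1064, 400, 140 and 98 in Rag2c/c p53-/- lymphomas. Every lymphoma therefore held reads of Cux2, but over a wide range. Trnp1, a nuclear protein of neural progenitors (ENSMUSG00000056596, chromosome 4 from 133491100 to 133498550), was at 960, 349, 436, 1245 and 507 in the Atm-/- group, at 2657, 280, 740, 1558 and 175 in the Rag2c/c p53-/- group and at 2, 0 and 4 in thymus. The lowest lymphoma of Trnp1 was still 5.14 log2 units above the highest thymus.

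The 19 receptors, kinases, membrane and scaffold proteins held the coding gene with the highest level per kilobase in Atm-/- lymphomas, Ripk4, picked out after its values had been seen. Ripk4, a kinase of keratinocyte differentiation (ENSMUSG00000005251, chromosome 16 from 97741933 to 97763737), was at 3573, 1427, 6346, 1596 and 7909 in Atm-/- lymphomas and at 4639, 101, 6607, 750 and 8033 in Rag2c/c p53-/- lymphomas, against 9, 3 and 12 in thymus. Per kilobase of exon its mean stood at the percentile 93.0 and 93.1 of all genes tested in the 2 lymphoma genotypes, and at 6.7 in WT thymus. The nearest tested gene on 1 side also met the rule, Tmprss2, a membrane serine protease of epithelia 130738 bp away. Tmprss2 was at 80, 37, 185, 81 and 193, at 223, 7, 372, 15 and 972, and at 2, 3 and 2. For both genes, lymphomas 2 and 4 of the Rag2c/c p53-/- group were the lowest and lymphoma 5 the highest, and lymphoma 5 was also the highest of the Atm-/- group.

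Kank4, a scaffold protein of the KANK family whose promoter is printed with the others (ENSMUSG00000035407, chromosome 4 from 98754898 to 98817537), had the largest spread. It was at 0 in each thymus, at 3284, 416, 1010, 2 and 3454 in Atm-/- lymphomas and at 8038, 155, 320, 32 and 1469 in Rag2c/c p53-/- lymphomas. The SD within a genotype was 4.20 and 3.04 on the log2(value + 1) scale. Lymphoma 4 was the lowest of both genotypes, so the gene was near the thymus level in 1 Atm-/- lymphoma and at 1010 or more in 3 others.

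Ltk, a receptor tyrosine kinase close to Alk (ENSMUSG00000027297, chromosome 2 from 119751320 to 119760431), showed the widest gap of all 101 genes, with its lowest lymphoma 5.50 log2 units above its highest thymus. Counts were 451, 991, 523, 948 and 466 in Atm-/- lymphomas, 315, 449, 557, 688 and 533 in Rag2c/c p53-/- lymphomas, and 6, 6 and 5 in thymus. The highest lymphoma was 3.15 times the lowest, and the genotypes overlapped (0.37 ± 0.29, adjusted p = 0.466, limma). Xkr6, of the XK family of membrane proteins, followed with a gap of 5.45, at 367, 1206, 408, 921 and 261, at 445, 328, 354, 424 and 345, and at 5, 3 and 5.

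Aif1l, an actin-binding protein, was at 1394, 406, 1977, 641 and 1735 in Atm-/- lymphomas, at 1707, 1077, 1290, 1146 and 1895 in Rag2c/c p53-/- lymphomas and at 14, 0 and 14 in thymus. Spsb4, an adaptor of ubiquitin ligases, was at 510, 1242, 222, 1248 and 202, at 445, 372, 458, 682 and 432, and at 6, 0 and 4. In both genes the Rag2c/c p53-/- lymphomas were the more uniform group, with an SD of 0.36 against 0.99 log2 units for Aif1l and of 0.33 against 1.28 for Spsb4.

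Epor, the receptor for erythropoietin and 1 of the 6 erythroid markers listed, was at 33, 164, 98, 49 and 13 in Atm-/- lymphomas, at 22, 463, 273, 160 and 357 in Rag2c/c p53-/- lymphomas and at 7, 0 and 7 in thymus. The genotypes overlapped. The summed erythroid list, led by the globin Hbb-bs, ran from 889 to 6245 in Atm-/-, from 816 to 4752 in Rag2c/c p53-/- and from 942 to 2128 in WT libraries, ranges that overlap, and its part in the level of Epor was not tested.

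**Figure D2:**
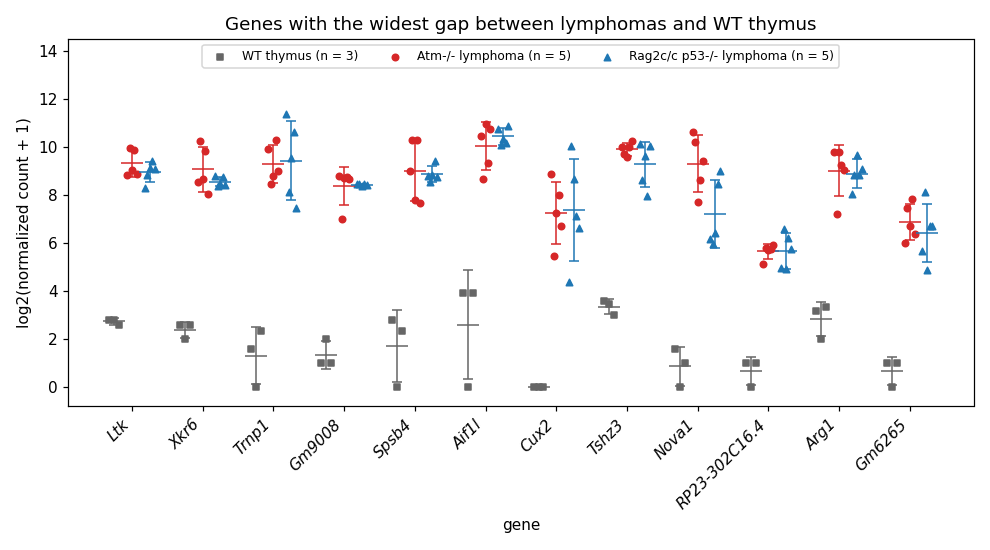
Level on the log2(normalized count + 1) scale of the 12 genes with the widest gap between the lowest lymphoma and the highest thymus, for 3 WT thymuses, 5 Atm-/- and 5 Rag2c/c p53-/- lymphomas. Points are libraries, and bars are mean ± SD. The gap is 5.50 for Ltk on the left, and every lymphoma sits above every thymus in all 12 genes.

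The 9 secreted and matrix proteins include Stc2, a secreted glycoprotein, the protease Adamts20 and the inhibin subunit Inhbb. Means lay between 86.8 and 1049 in Atm-/- lymphomas and between 65.4 and 1154 in Rag2c/c p53-/- lymphomas. Every lymphoma lay above every thymus for 7 of the 9, beside 82 of all 101 genes. Wisp1, a matricellular protein picked out after its values had been seen, was at 2277, 598, 1177, 28 and 1164 in the Atm-/- group, at 26, 17, 44, 400 and 84 in the Rag2c/c p53-/- group and at 2, 0 and 3 in thymus. It was high in all Atm-/- lymphomas but lymphoma 4 and low in the other group except for its own lymphoma 4, and the difference did not pass the test (3.23 ± 1.09, adjusted p = 0.073, limma). The sum of 8 fibroblast markers ran from 449 to 486 in WT, from 4464 to 19841 in Atm-/- and from 2115 to 3973 in Rag2c/c p53-/- libraries. Each of the 8 markers was above 0 in some lymphoma. Within the Atm-/- group, Col1a2, the most abundant marker, was highest in lymphoma 4 (6874), where Wisp1 was lowest. Col1a1 (5791), Col3a1 (2608), Sparc (2358), Dcn (481), Lum (39) and Pdgfra (60) were also highest in lymphoma 4. Pdgfrb alone was highest in lymphoma 1 (3470), where Wisp1 was highest. The part of fibroblasts in the level of Wisp1 was not tested.

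The 11 enzymes and proteins of the endoplasmic reticulum had means of 66.2 to 608 in the Atm-/- and 65.2 to 672.8 in the Rag2c/c p53-/- group. Arg1, the liver-type arginase that is also made by some macrophages (ENSMUSG00000019987, chromosome 10 from 24915208 to 24927470), was the 1 enzyme among the 12 genes with the widest gap. It stood at 886, 146, 878, 605 and 525 in Atm-/- lymphomas, at 261, 459, 817, 449 and 540 in Rag2c/c p53-/- lymphomas and at 8, 3 and 9 in thymus. Every lymphoma was above every thymus by at least 3.88 log2 units, and the genotypes overlapped. The sum of 7 macrophage markers was 4552 to 5244 in WT, 9454 to 17983 in Atm-/- and 5934 to 12334 in Rag2c/c p53-/- libraries, with Lyz2 the most abundant, and its part in the level of Arg1 was not tested.

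Cygb, a globin of fibroblasts and other cells, overlaps Gm11744, a gene on the opposite strand of chromosome 11, at their starts. Cygb was at 253, 87, 932, 164 and 416 in Atm-/- lymphomas, at 77, 165, 53, 265 and 194 in Rag2c/c p53-/- lymphomas and at 6, 16 and 6 in thymus. Gm11744 was at 453, 128, 819, 348 and 361, at 33, 304, 7, 169 and 166, and at 1, 0 and 0. Lymphoma 3 was the highest for both genes in the Atm-/- group, and neither gene passed the test between genotypes (adjusted p = 0.298 and 0.104, limma), while for Gm11744 the adjusted p was 0.0475 without Rag2c/c p53-/- lymphoma 2.

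The 10 other coding genes included Gm9008, with the smallest SD of all 101 genes in the Rag2c/c p53-/- group, and Pabpc2, with a large SD in both groups. Gm9008 (ENSMUSG00000072476, chromosome 6 from 76496357 to 76497631) was at 347, 355, 328, 349 and 345 in Rag2c/c p53-/- lymphomas, a mean of 344.8 ± 10.1 (SD, n = 5). Its Atm-/- lymphomas stood at 439, 126, 417, 431 and 405 and its thymuses at 1, 3 and 1. All lymphomas but Atm-/- lymphoma 2 thus lay between 328 and 439. Pabpc2, a testis form of poly(A)-binding protein, was at 117, 30, 93, 0 and 448, at 56, 250, 22, 3 and 171, and at 1, 0 and 0, so lymphoma 4 of either genotype was at the level of thymus.

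The 6 genes grouped as noncoding RNA genes include RP23-456B9.24, the gene still to be classed. RP23-456B9.24 had the smallest spread of all 101 genes. It was at 64, 96, 60, 75 and 70 in Atm-/- lymphomas, at 54, 91, 71, 57 and 71 in Rag2c/c p53-/- lymphomas and at 3, 3 and 7 in thymus. Gm17586 was nearly as even, at 67, 62, 45, 41 and 67, at 30, 81, 53, 49 and 59, and at 11, 6 and 14. Crnde, a long noncoding RNA gene that is known from several cancers, was at 48, 41, 127, 6 and 44, at 176, 203, 114, 79 and 156, and at 7, 13 and 9. The genotypes overlapped, and the difference of -1.86 ± 0.61 (Atm-/- minus Rag2c/c p53-/-, log2) did not pass the test (adjusted p = 0.0632, limma). Without Atm-/- lymphoma 3 its adjusted p was 0.0206.

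Pseudogenes made up 9.9% of the genes, beside 5.65% of all genes tested and 1.71% of the 11044 tested genes whose mean reached 50 in both lymphoma genotypes. A processed pseudogene is a copy of a spliced transcript inserted elsewhere in the genome, so its sequence is close to that of an expressed gene, and how reads of such copies were assigned is not given in the sources used here. Their values are therefore uncertain, and the mice differ in strain while the reads were aligned to 1 reference genome. Per kilobase, Gm6969 stood at the percentile 98.8 and Rps13-ps1 at 98.6 in Atm-/- lymphomas, above Ripk4 at 93.0 and Gm10704 at 92.3, while the median of all 101 genes was at 40.4 in Atm-/-, 37.4 in Rag2c/c p53-/- and 4.80 in WT libraries.

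Gm28438, an unprocessed pseudogene, was at 149, 180, 168, 118 and 111 in Atm-/- lymphomas, at 49, 74, 104, 75 and 68 in Rag2c/c p53-/- lymphomas and at 2, 10 and 2 in thymus. All Atm-/- lymphomas lay above all Rag2c/c p53-/- lymphomas, but the difference of 0.98 ± 0.38 (SE, log2) did not pass the test (adjusted p = 0.121, limma). Eif3s6-ps2 was at 93, 75, 130, 109 and 80, at 69, 61, 52, 119 and 86, and at 2, 10 and 4. These levels were among the most even of all 101 genes. RP23-302C16.4 was at 34, 55, 51, 53 and 59, at 30, 95, 29, 72 and 53, and at 1, 0 and 1. Gm6265 was at 63, 174, 105, 226 and 81, at 50, 274, 28, 104 and 105, and at 1, 0 and 1. The lymphoma genotypes overlapped in the last 3 of these pseudogenes.

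Whether the genes were read alike in both genotypes was tested by comparing Atm-/- with Rag2c/c p53-/- lymphomas, a contrast that did not set the direction of any gene. A gene counted as changed at an adjusted p under 0.05 (limma, Benjamini-Hochberg over all 15872 genes) and a log2 difference of at least 1. Of the 101 genes, 6 changed (5.94%), against 8.05% of all genes tested and 4.65% of those with a mean of at least 50 in both genotypes. Of these, 5 were higher in Atm-/- (background 3.56%) and 1 in Rag2c/c p53-/- lymphomas (background 4.49%). The number was 3 with thymus left out of the fit and 4 to 11 with 1 lymphoma left out, the 11 without Atm-/- lymphoma 3, when 1341 of all genes changed, so it cannot be set above or below the background. The requirement of 50 in both genotypes limits how far these genes can differ. At an unadjusted p under 0.05 stood 21 genes (20.8%), against 26.2% of all genes. Every Atm-/- lymphoma lay above every Rag2c/c p53-/- lymphoma for 2 genes, Cdh22 and Gm28438 (background 3.85%), and the reverse held for 0 (background 4.48%). The Atm-/- mean was the higher for 60 genes and the Rag2c/c p53-/- mean for 41, and the median log2 difference was 0.14, beside 0.02 over all genes tested.

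Cdh22, a cadherin of brain (ENSMUSG00000053166, chromosome 2 from 165111507 to 165234853), was at 1076, 2211, 713, 773 and 877 in Atm-/- lymphomas, at 9, 122, 171, 126 and 45 in Rag2c/c p53-/- lymphomas and at 2, 6 and 4 in thymus. The genotypes did not overlap, and the first Rag2c/c p53-/- lymphoma was close to the thymus level. The means were 1130 ± 620 and 94.6 ± 65.9 (SD, n = 5 each), a ratio of 11.9, and the log2 difference was 3.97 ± 0.66 (SE, adjusted p = 0.00204, limma).

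Rps13-ps1, a processed pseudogene of a ribosomal protein gene (ENSMUSG00000066362, chromosome 8 from 87047689 to 87048226), was at 1140, 2464, 1802, 1816 and 1292 in Atm-/- lymphomas and at 10, 10 and 6 in thymus. In Rag2c/c p53-/- lymphomas it stood at 10, 1418, 0, 16 and 13, so only lymphoma 2 lay in the range of the Atm-/- lymphomas and the other 4 were at 16 or less. The log2 difference was 6.32 ± 1.33 (SE, adjusted p = 0.00833, limma). The gene met the rule on the mean of the Rag2c/c p53-/- group, 291.4 ± 630 (SD, n = 5), through that 1 lymphoma. Strain differs between the groups, with 129S6/SvEv for the Atm-/- group, a mixed background for the Rag2c/c p53-/- group and C57BL/6 for thymus. Its part cannot be told apart from that of genotype, and the cause of the split among the Rag2c/c p53-/- lymphomas was not tested.

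Stc2, a secreted stanniocalcin (ENSMUSG00000020303, chromosome 11 from 31357307 to 31370074), was the 1 gene called higher in Rag2c/c p53-/- lymphomas. It was at 363, 1523, 888, 1038 and 1957 there, at 151, 91, 419, 338 and 66 in Atm-/- lymphomas and at 8, 3 and 7 in thymus. Only the lowest Rag2c/c p53-/- lymphoma overlapped the Atm-/- range. The means were 1154 ± 611 and 213 ± 157 (SD, n = 5 each), a ratio of 5.42, and the log2 difference of Atm-/- minus Rag2c/c p53-/- was -2.58 ± 0.56 (SE, adjusted p = 0.00974, limma).

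Ccnb1ip1, a ubiquitin ligase needed for crossing over in meiosis (ENSMUSG00000071470, chromosome 14 from 50789249 to 50795728), was at 225, 607, 292, 592 and 112 in Atm-/- lymphomas, at 3, 54, 44, 19 and 199 in Rag2c/c p53-/- lymphomas and at 0 in each thymus. The log2 difference was 3.21 ± 0.83 (SE, adjusted p = 0.0241, limma). The call was lost without Atm-/- lymphoma 4 (adjusted p = 0.0595), without Rag2c/c p53-/- lymphoma 4 (0.0514) and with thymus left out of the fit (0.0526).

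Car11, a member of the carbonic anhydrase family without enzyme activity, was at 175, 372, 495, 130 and 134 in Atm-/- lymphomas, at 26, 78, 71, 182 and 28 in Rag2c/c p53-/- lymphomas and at 4, 10 and 3 in thymus. Tmem44, a transmembrane protein, was at 520, 171, 78, 137 and 304, at 34, 41, 61, 184 and 21, and at 3, 6 and 5. In both genes, lymphoma 4 of the Rag2c/c p53-/- group reached the Atm-/- range. The log2 differences were 1.89 ± 0.57 (adjusted p = 0.0473) and 1.93 ± 0.59 (adjusted p = 0.0496, limma). These calls were at the threshold. Leaving out 1 lymphoma ended the call of Car11 for each lymphoma except Rag2c/c p53-/- lymphoma 4 (adjusted p from 0.0526 to 0.11), and that of Tmem44 for each except Atm-/- lymphoma 3 and Rag2c/c p53-/- lymphoma 4 (adjusted p from 0.0659 to 0.12). With thymus left out of the fit neither was called (adjusted p = 0.0742 for Car11 and 0.0883 for Tmem44), nor with no filter on low values (0.0571 and 0.0601), nor was Tmem44 at equal column totals (0.0528).

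**Figure D3:**
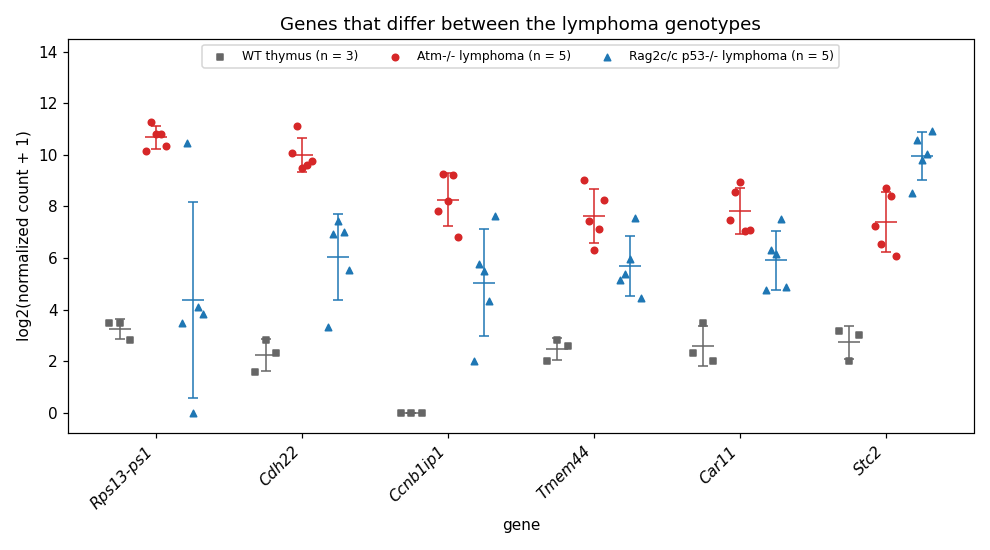
Level on the log2(normalized count + 1) scale of the 6 genes called different between Atm-/- and Rag2c/c p53-/- lymphomas (5 each), with the 3 WT thymuses. Points are libraries and bars are mean ± SD. In Cdh22 the 2 lymphoma groups do not overlap, and in Rps13-ps1 a single Rag2c/c p53-/- lymphoma lies with the Atm-/- lymphomas.

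The genes varied widely between tumors of the same genotype. The median SD within a genotype was 1.15 log2 units in the Atm-/- and 1.20 in the Rag2c/c p53-/- group, beside 0.32 and 0.38 for all tested genes with a mean of at least 50 in both. Genes of like level were also compared, a choice made after the values had been seen. Among genes whose means lay from 50 to 500 in both genotypes, the median SDs were 1.12 and 1.14 for 73 of the 101 genes and 0.52 and 0.53 for the 2924 other genes. The highest of the 10 lymphomas was at least 10 times the lowest for 71 of the 101 genes (70.3%), against 9.65% of tested genes with both means at 50 or more. Within the level range it was 51 of 73 genes (69.9%) against 561 of 2924 (19.2%). The rule admits a gene that is low in 1 lymphoma of each genotype, and its limit on the WT level also picks genes, so no test was made of this difference.

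Kank4, Syt6, Pabpc2 and Stra6 had the largest pooled spread. Syt6, a synaptotagmin, was at 167, 601, 295, 0 and 236 in Atm-/- lymphomas, at 4, 193, 221, 741 and 128 in Rag2c/c p53-/- lymphomas and at 6, 0 and 2 in thymus. Stra6, the cell-surface receptor for retinol-binding protein, was at 876, 553, 209, 2 and 175, at 47, 118, 64, 1171 and 14, and at 5, 3 and 13. Lymphoma 4 of the Atm-/- group was the lowest for Kank4, Syt6, Pabpc2 and Stra6 alike, while lymphoma 4 of the Rag2c/c p53-/- group was the highest for Syt6 and Stra6. The numbers of the 2 groups do not pair them.

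For 19 genes the highest lymphoma was at least 100 times the lowest, or the lowest was at 0, and for 9 it was under 4 times the lowest. The 9 even genes were C5ar1, Eif3s6-ps2, Gm17586, Gm28438, Gm5801, Gm9008, Ltk, RP23-302C16.4 and RP23-456B9.24. They include 4 pseudogenes, the noncoding RNA gene Gm17586 and RP23-456B9.24, the gene still to be classed. No library held all the high values: the number of genes that were highest in a given lymphoma ran from 5 to 14, and the number that were lowest from 0 to 19.

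**Figure D4:**
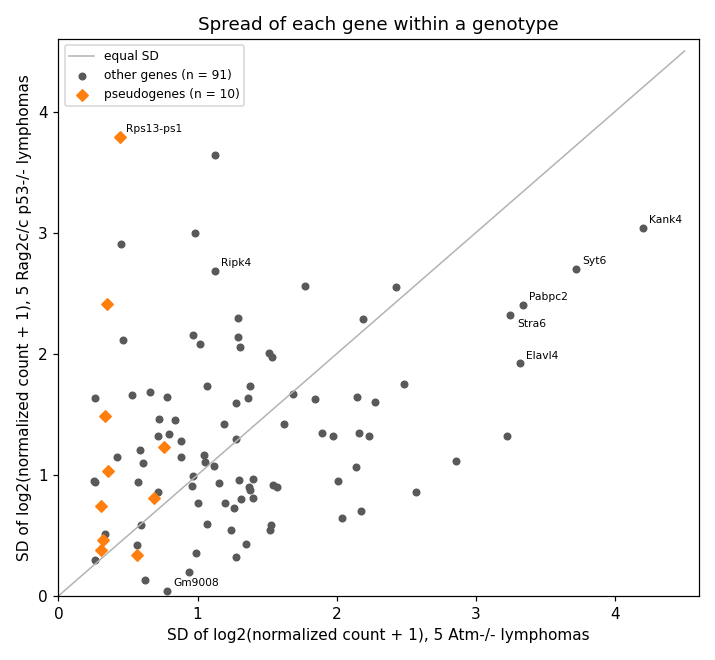
SD of log2(normalized count + 1) among 5 Atm-/- lymphomas (x axis) and among 5 Rag2c/c p53-/- lymphomas (y axis) for each of the 101 genes, with the 10 pseudogenes as orange diamonds and a line of equal SD. Kank4 lies farthest to the right, at 4.20 and 3.04, Rps13-ps1 highest on the y axis, and Gm9008 lowest.

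Apart from leaving out X and Y, position was not used to choose the genes. They lay on 17 chromosomes, with 15 on chromosome 4 (14.9%, against 6.37% of all genes tested, X and Y included) and 0 on chromosomes 13 and 19. The nearest tested gene on either side gave 195 neighbours that were not among the 101. Of these, 46 (23.6%) were higher in Atm-/- lymphomas than in thymus and 38 (19.5%) in Rag2c/c p53-/- lymphomas, against 12.2% and 9.39% of all tested genes outside the 101. Lower were 10.3% and 10.8%, against 17.2% and 14%. Among the 141 neighbours within 100 kb, 26.2% and 22.0% were higher. Both sets of neighbours include genes whose positions overlap the gene of the list. Among these, Gm21817 with Crnde and Ccdc33 with Stra6 were higher in both genotypes. Ddx17 with Kdelr3 and Mtor with Angptl7 did not pass the test in either. Overlapping genes were not set apart, and the part of shared reads in the shares given here was not tested. Both comparisons share the thymuses.

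Single pairs differed in either direction. Lamc3, a laminin chain 3600 bp from Aif1l, was higher than in thymus by 3.78 log2 units in the Atm-/- and 5.30 in the Rag2c/c p53-/- group. Ncald, a calcium sensor of neurons 2606 bp from Grhl2, was higher by 4.13 and 3.75, and Fam46b, 3162 bp from Trnp1, by 3.73 and 3.83. Itpka, a kinase of inositol trisphosphate 57 bp from Ltk, was higher by 2.06 and 1.89. Inadl, a tight junction protein 35295 bp from Kank4, in contrast differed by -5.44 and -3.09 log2 units, that is lower in lymphoma, and Cd40, 38559 bp from Cdh22, by -2.83 and -2.47. All of these passed the test in both genotypes, and these pairs were chosen with their values known.

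The positions of 39 genes overlapped another gene, and for 15 of them that gene had a mean of at least 50 in a lymphoma genotype. For Kdelr3, chosen with its values known, a receptor that returns proteins to the endoplasmic reticulum, the overlapping gene on the opposite strand was Ddx17, with means of 16155 in WT, 12825 in Atm-/- and 12568 in Rag2c/c p53-/- libraries. Kdelr3 was at 3, 3 and 1 in thymus, and at 18 to 196 and at 66 to 388 in the lymphomas. The part of such overlaps in the levels of these genes was not tested.

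Lists of markers of other cell types and of pathways were set beside the genes to show what else differed between the samples. Of 220 listed genes in the table, 2 were among the 101, Epor and Rbfox3. Thymocyte markers were present throughout, with sums of 94589 to 180358 in Atm-/-, 139434 to 196628 in Rag2c/c p53-/- and 214597 to 314752 in WT libraries, and Lck the most abundant. Against thymus, 6 of 15 thymocyte markers were lower in the Atm-/- and 2 in the Rag2c/c p53-/- group. Fibroblast markers were higher for 6 and 5 of 8, led by Col1a2 with means of 31 in WT, 4475 in Atm-/- and 358 in Rag2c/c p53-/- libraries, and macrophage markers for 4 and 2 of 7. B cell markers were lower for 5 and 6 of 6, neutrophil markers for 5 and 5 of 5 tested, thymic epithelial markers for 4 and 5 of 8, and cytotoxic and NK cell markers for 6 and 6 of 8, with 1 higher in each. Erythroid markers were higher for 2 and 2 of 5 tested, of which Epor by the choice of genes. Markers of division were higher for 1 and 2 of 6. Neuronal markers were higher for 2 and 2 of 2 tested, Tubb3 and Rbfox3, the latter by the choice of genes. The other neuronal markers were too low to be tested. Syt1 had means of 10 in WT, 0 in Atm-/- and 3 in Rag2c/c p53-/- libraries. Snap25, Stmn2 and Gap43 had means of at most 5 in every group. Endothelial markers were higher for 1 and 1 of 4 tested and lower for 0 and 2, and mast cell markers lower for 1 and 0 of 2 tested.

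The pathway lists, short selections of 16 to 26 genes each, held 0 of the 101 genes. Some of the 101 have such roles but were not listed, among them the receptor tyrosine kinase Ltk and the homeobox protein Cux2. Matrix genes without collagens were higher for 7 and 3 of 16 tested and lower for 0 and 1 in Atm-/- and Rag2c/c p53-/- lymphomas, respectively. Germline and meiosis genes were higher for 1 and 1 of 4 and lower for 2 and 1, homeobox genes higher for 1 and 1 of 5 and lower for 1 and 0, and axon guidance genes higher for 2 and 2 of 8 and lower for 0 and 1. Receptor tyrosine kinases were higher for 2 and 3 of 15 and lower for 8 and 2, Wnt, Hedgehog and BMP genes higher for 2 and 2 of 14 and lower for 1 and 2, and cytokines and chemokines higher for 3 and 2 of 14 and lower for 3 and 3. The part of other cells in the levels of the 101 genes was not tested.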

How the data were processed

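RNA of single-cell suspensions was made into libraries with a stranded poly(A) kit, per the labels. Per the submitters' processing notes, the tools were bcl2fastq 1.8.3, STAR 2.4.0g1, Picard and DESeq2 1.6.3 on mm10 (GRCm38). The read counter and annotation are not given in the sources used here. The deposited values are scores: counts per gene that the authors divided by size factors and rounded, so depth was estimated from the worth of 1 read, as a lower bound, and no test for raw counts was run. Column totals lay between 19788898 and 21591289, and recomputed size factors between 0.993 and 1.03. The deposited overall mean differed by over 1% from the mean of the 13 libraries for 17346 genes. Columns with fold changes, p-values and adjusted p-values of the authors were not used. The source label of the WT samples reads lymphoma, and their tissue and genotype labels, thymus and wild type, were followed.

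Genes with at least 10 in at least 3 libraries (15872) were fitted with limma 3.58.1 in R 4.3.3 on log2(value + 1), with trend and robust moderation and 3 groups over 13 libraries, and the fit was tested on simulated data. Fold changes on this scale understate changes of low genes. Gene lengths were unions of exons of GENCODE vM21. The members and lists were chosen with earlier results of these data known. Named were the 12 genes with the widest gap, genes changed between genotypes, the 4 largest and 4 smallest spreads, genes at the limits of the rule, genes on a list and genes next to each other. Others were chosen with their values known. The values of 1 gene of the list are not reported here, though it is in every count. Alternatives covered scaling, pseudocount, filter, groups in the fit, fold threshold, the limits of the rule, neighbour distance and leaving out each library.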

Additional observations from a re-analysis of the deposited data

Results flagged for a closer look

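For the 37 named genes, the 5 lymphomas of each genotype, 74 sets of values in all, were examined for a library standing apart from the others. The measure was gap over range above 0.71 on the log2(value + 1) scale, and 5 libraries passed it. On this scale a gap below the other values weighs more than on the scale of counts. Chance flags about 1 in 20 such groups. Each of the 5 was the lowest value of the Atm-/- group. Over all 101 genes, 202 sets, 15 values stood apart, of which 7 were the lowest and 2 the highest of the Atm-/- group, and 5 the lowest and 1 the highest of the Rag2c/c p53-/- group. Syt6 was at 0 and Stra6 at 2 in Atm-/- lymphoma 4. Prtg, an adhesion protein of the embryonic nervous system, was at 19 in Atm-/- lymphoma 5, against 104 to 196 in the others. Gm9008 was at 126 in Atm-/- lymphoma 2. RP23-302C16.4 was at 34 in Atm-/- lymphoma 1.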

How the results depend on the processing

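The 6 genes of the list that changed between the lymphoma genotypes became 3 with thymus left out of the fit and 4 to 11 when 1 lymphoma was left out, with 11 without Atm-/- lymphoma 3. Over all genes the 1277 changed genes became 832 with thymus left out of the fit and 955 to 1341 with 1 lymphoma left out. The 101 genes became 55 with a WT mean of at most 5, 177 with at most 20, 211 with lymphoma means of at least 25 and 56 with at least 100, and 94 to 109 with 1 library left out. Without WT thymus 2, the shallowest control, 94 genes met the rule, 87 of them among the 101. Genes with every lymphoma above every thymus numbered 82 to 87. Of 555 differences recomputed for the named genes, 485 kept direction and side of the threshold, 25 lost a call, 8 gained one and 37 turned direction, the last in genes with no call. With 1 lymphoma left out, those genes ranged from -0.093 to 0.57 for Arg1, -0.86 to 0.55 for Cux2, -0.10 to 0.25 for Gm17586, -0.15 to 0.29 for Gm9008, -1.04 to 1.70 for Kank4, -0.998 to 1.25 for Pabpc2, -0.21 to 0.21 for RP23-302C16.4, -0.013 to 0.20 for RP23-456B9.24, -0.69 to 0.24 for Rbfox3, -0.51 to 0.33 for Slc6a9, -0.19 to 0.47 for Spsb4, -0.053 to 1.995 for Stra6, -1.44 to 1.33 for Syt6 and -0.63 to 0.35 for Trnp1. With a pseudocount of 5 the difference was 0.12 for Kank4 and 0.14 for Pabpc2. The cause of these shifts was not tested. No paired analysis was made, because each library came from a separate mouse and nothing pairs them. The labels give the lymphomas no replicate numbers, so the numbers used here follow the order of the samples in the series. Depth limits values under about 3 in the shallowest libraries, where 1 read was worth up to 3.38.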
